A study of Mus musculus with 8 samples.

Results

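Sorting nexins are proteins that carry a phox homology (PX) domain, which binds phosphoinositide lipids and brings them to endosomes and neighbouring membranes. Members with a BAR domain also bend membranes into tubules, and several work with retromer, retriever or the actin-regulating WASH complex to send receptors back to the cell surface or to the Golgi. Microglia are macrophages that live in the brain and spinal cord, and they rely on this endosomal traffic when they take up debris and recycle surface receptors. The family was taken as all protein-coding mouse genes whose symbol is Snx followed by digits only, which gave 30 of the 54532 genes in the count table. The family was selected on the measured difference between the genotypes, in which Snx20 had the smallest unadjusted p-value of all 17291 tested genes, so the genotype difference of Snx20 is given below as a description. The choice of the family fixed that difference, and no interval, p-value, call or gap between the groups of Snx20 below is evidence for it.

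The libraries came from microglia of the spinal cords of 8 female mice, 1 library per mouse. The 4 KI mice (numbers 513, 526, 528 and 549) carried the knock-in labelled Cd11b-P2X4mCherryIN, and the 4 WT mice (503, 504, 506 and 527) were wild type. The knock-in label names the myeloid integrin CD11b, the ATP-gated cation channel P2X4 and the red fluorescent protein mCherry. The study compared the genotypes to learn what P2X4 does in autoimmune inflammation of the nervous system. For these libraries the labels name genotype and sex, and the sources used here do not give the promoter behind the allele, its zygosity, the age of the mice or any treatment. The cells were sorted as living, CD11b positive, CD45 low and Ly6C negative.

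The libraries held 45167483 to 54049801 reads on genes, with overlapping depths in the groups. P2rx4, the gene of P2X4, was at 858.8 ± 62.7 CPM in KI and 793.3 ± 43.5 CPM in WT (counts relative to library size, scaled by TMM; SD, n = 4 each), a log2 fold change of 0.11 (edgeR quasi-likelihood adjusted p = 0.735). A knock-in adds to or alters a gene, so this level does not check the labels. The summed level of 6 microglial markers was 22792 to 26131 CPM in KI and 23527 to 27278 CPM in WT, and all 6 were detected. The lists of 10 other cell types overlapped between the groups as well. Among them, erythroid markers summed to 96.2 to 306 CPM in KI and 159 to 523 CPM in WT, and oligodendrocyte markers to 94.2 to 221 CPM in KI and 106 to 208 CPM in WT. The T and NK cell list reached 1.81 CPM in KI and 4.04 CPM in WT at most, and each of its 6 genes averaged under 1 CPM. No marker of any list was at 0 in all 8 libraries. The part of these cells in the differences below was not tested. In bulk RNA, fewer cells of a type and less RNA per cell cannot be told apart. The p-values weigh each difference between the genotypes against the spread between these mice.

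The promoters of 21 of the 30 members were matched in the RefSeq table of build GRCm38.p6, which gives 250 bases before to 50 bases after each gene's start. Snx20 and Snx2 were not among the 21. The 21 promoters were rich in G and C. Their median GC content was 65.3%, against 52.7% over the 27025 genes of the table, and their median number of CpG dinucleotides was 26, against 7. The 27025 genes were not chosen by level in these cells, so the difference is not shown to be particular to the family. Snx5 and Snx21 are printed because they shared the highest GC content of the members, 75.7%, while their transcripts lay near opposite ends of the family. Snx5, which pairs with Snx1 or Snx2 in endosomal tubules, averaged 161 FPKM (reads scaled to exon length and to library total) over the 8 libraries, and Snx21, the closest named relative of Snx20, averaged 0.838 FPKM. The Snx5 promoter lies at chr2:144270523-144270822 on the minus strand and the Snx21 promoter at chr2:164785771-164786070 on the plus strand. Capitals mark the E-box CACGTG in Snx5 and the GC box, GGGCGG or its reverse complement CCGCCC, in Snx21.
Snx5: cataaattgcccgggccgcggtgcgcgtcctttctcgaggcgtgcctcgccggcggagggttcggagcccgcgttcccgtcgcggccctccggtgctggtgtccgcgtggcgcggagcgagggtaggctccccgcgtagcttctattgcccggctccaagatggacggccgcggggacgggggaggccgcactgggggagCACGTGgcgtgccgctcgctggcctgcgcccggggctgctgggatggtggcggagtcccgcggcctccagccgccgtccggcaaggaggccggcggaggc
Snx21: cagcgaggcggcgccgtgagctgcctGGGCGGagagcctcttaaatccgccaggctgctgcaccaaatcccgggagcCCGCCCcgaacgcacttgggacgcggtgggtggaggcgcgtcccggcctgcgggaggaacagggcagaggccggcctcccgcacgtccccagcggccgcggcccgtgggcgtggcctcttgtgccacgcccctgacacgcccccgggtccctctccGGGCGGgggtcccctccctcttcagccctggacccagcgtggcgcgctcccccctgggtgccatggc

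The E-box had 1 match in the Snx5 window and the GC box 3 matches in the Snx21 window. Over the family and on both strands, the GC box GGGCGG lay in 16 of the 21 promoters, against 35.9% of all promoters in the table. The E-box CACGTG lay in 3 of 21, those of Snx5, Snx8 and Snx18, against 7.24% of all promoters. GAGGAAGT, a motif bound by the myeloid factor PU.1, lay in that of Snx8 alone among the 21, against 3.28% of all promoters. None of these motifs contains another, and a match is a description of the sequence in this window. The shares were not matched for base composition.

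Transcripts of 29 of the 30 members were found in all 8 libraries, and no member was without reads in the series. The exception was Snx22, with 0 reads in KI 528, for which 3 reads, or 0.0644 CPM, is the limit if reads count singly (counting error only). Both reads of a pair can count, so the true limit may be higher. By mean FPKM over the 8 libraries, 5 members were at 90 or more, 9 at 10 to 50, 12 at 1 to 10 and 4 under 1. The 5 highest together held 70.5% of the family's summed FPKM, with a range of 69.1% to 72.1% over libraries. The family's summed FPKM was 1069 ± 36.5 in KI and 1045 ± 21.4 in WT (SD, n = 4 each), with ranges of 1027 to 1109 in KI and 1018 to 1070 in WT that overlapped.

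**Figure D1:**
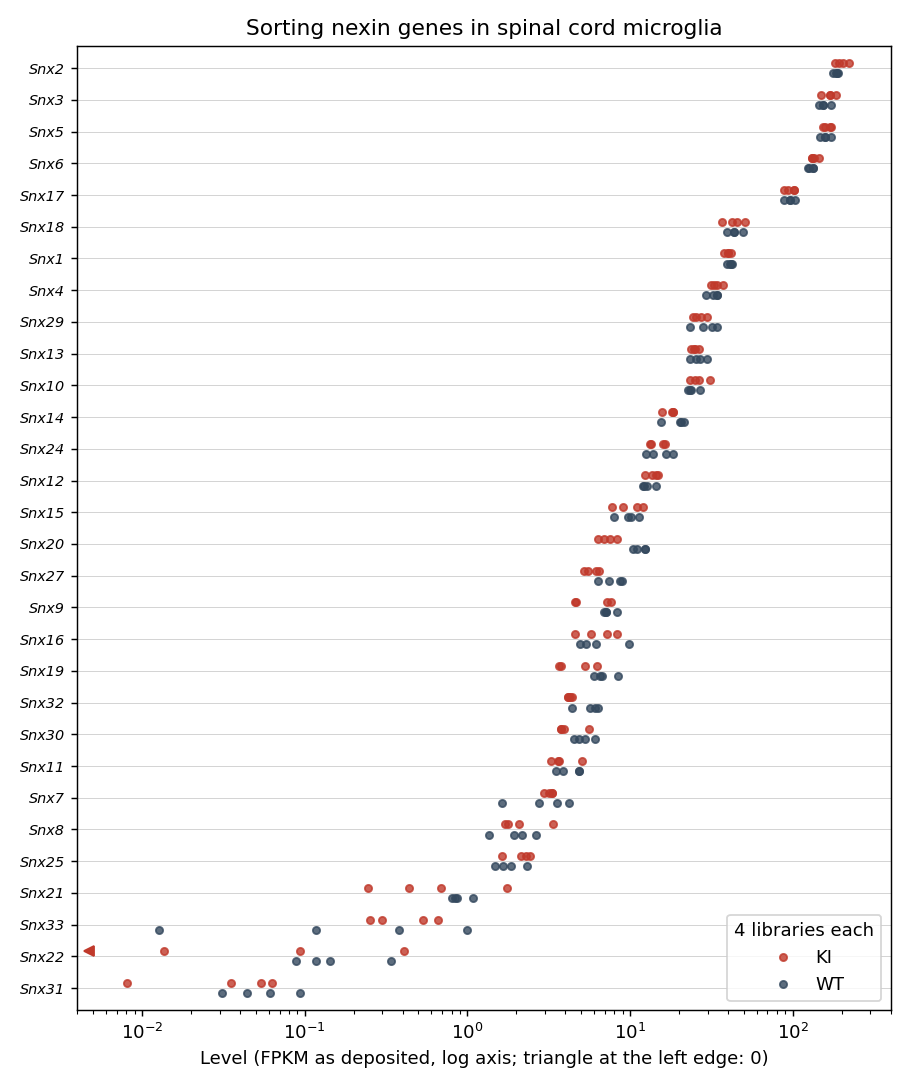
FPKM of the 30 sorting nexin genes in each library on a log axis, with KI points drawn above WT points and genes ordered by their mean over the 8 libraries. Snx2, Snx3, Snx5, Snx6 and Snx17 sit together at the top, and the KI and WT points of Snx20 do not overlap.

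The order began with Snx2 at 193 ± 14.4 FPKM, Snx3 at 162 ± 13.4, Snx5 at 161 ± 9.27, Snx6 at 133 ± 6.70 and Snx17 at 96.6 ± 5.83 (SD over 8 libraries). Snx2 was above Snx3 in each of the 8 libraries although their ranges overlapped, and Snx3 was above Snx5 in 4 of 8. Of the 29 pairs of neighbours in the order, 6 had ranges that did not overlap: Snx5 over Snx6, Snx6 over Snx17, Snx17 over Snx18, Snx1 over Snx4, Snx10 over Snx14 and Snx12 over Snx15. The other 23 pairs had ranges that overlapped. Among these, Snx20 was above Snx27 and Snx25 above Snx21 in each of the 8 libraries, as Snx2 was above Snx3. Snx20 ranked 16 with 9.41 FPKM, between Snx15 at 9.90 and Snx27 at 6.84. The lowest members were Snx21 at 0.838, Snx33 at 0.407, Snx22 at 0.150 and Snx31 at 0.0487 FPKM.

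Snx20 encodes a PX protein that binds the cytoplasmic tail of PSGL-1, the selectin ligand of leukocytes, and draws it to endosomes. The gene lies at chr8:88626563-88636128 on the minus strand of mm10. Its level was 47.7, 50.6, 44.5 and 39.8 CPM in KI 513, 526, 528 and 549, against 75.8, 65.6, 68.8 and 77.3 CPM in WT 503, 504, 506 and 527. Each KI library lay below each WT library. The means were 45.7 ± 4.60 CPM in KI and 71.9 ± 5.58 CPM in WT, a log2 fold change of -0.66 (SE 0.10, a description of a difference that chose the family), with WT 1.57-fold higher. Deposited FPKM gave 7.28 ± 0.840 in KI and 11.5 ± 0.959 in WT, again without overlap. These values rest on 2007 to 2684 reads per KI library and 3057 to 4140 reads per WT library.

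The annotation gives Snx20 a coding transcript of 1699 exon bases and a retained-intron transcript, and 73.6% of the 6439 exon bases counted lie only in the retained-intron transcript, the highest share in the family. The count and the FPKM do not tell the transcripts apart, so the level per length of Snx20 depends on which of them was read. Other members share this limit in FPKM, among them Snx10, with 68.95% of exon bases only in non-coding transcripts, and Snx7, with 66.93%. The deposited table held 3 other protein-coding genes within 200000 bases. Nod2, a receptor for bacterial peptidoglycan that lies 11187 bases away, was at 1.67 ± 0.944 CPM in KI and 2.37 ± 1.01 CPM in WT (log2 fold change -0.50, edgeR adjusted p = 0.908). Cyld, a deubiquitinase of NF-kappaB signalling, was at 139 ± 12.4 CPM in KI and 140 ± 9.38 CPM in WT (log2 fold change -0.01, adjusted p = 0.993). Nkd1, an inhibitor of Wnt signalling, was too low to be tested.

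Snx21, which shares with Snx20 a second conserved domain behind the PX domain, was far lower. It had 2.01, 3.05, 1.15 and 8.03 CPM in KI 513, 526, 528 and 549, against 3.61, 5.002, 3.79 and 3.97 CPM in WT 503, 504, 506 and 527. KI 549 was above the 4 WT libraries and the other KI libraries were below them. The log2 fold change was -0.20 (SE 0.51, edgeR adjusted p = 0.966). Without KI 549, the library that went the other way, it was -0.98 (edgeR adjusted p = 0.479, unadjusted p under 0.05). Nothing is read from that fit. Of its exon bases, 246 are shared with Acot8 on the other strand, a gene with 2505 reads over the 8 libraries against 1555 for Snx21, and without strand these reads cannot be assigned.

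**Figure D2:**
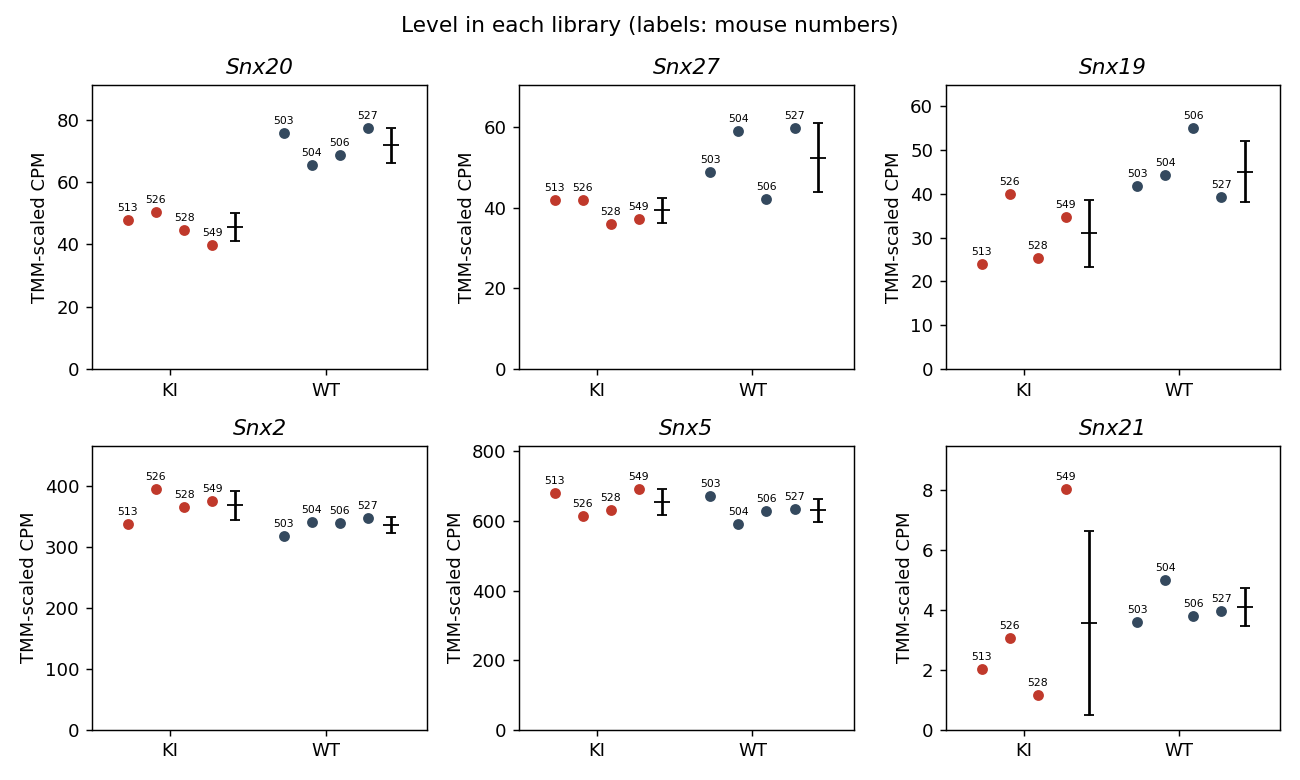
TMM-scaled CPM of 6 sorting nexin genes in each KI and WT library, with the mouse number at each point and the mean and SD (n = 4) as bars. On this scale KI lies below WT without overlap for Snx20 and Snx27, the groups overlap for Snx19, Snx2 and Snx5, and KI 549 stands above the other KI libraries for Snx21.

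Of the 30 members, 29 passed the filter on low counts and were tested, and Snx31, with 1 to 13 reads per library, was not. By edgeR's quasi-likelihood test with Benjamini-Hochberg adjustment over all genes, 0 of the 29 were called at an adjusted p under 0.05, where 0% of all tested genes were. At an unadjusted p under 0.05 there were 3 members, Snx20, Snx27 and Snx19, each lower in KI, while 7.79% of all tested genes passed that limit, 4.56% lower and 3.23% higher. Since this contrast chose the family, nothing is read from that count. DESeq2 called 1 member, Snx20, where it called 1.11% of genes, and edgeR's likelihood ratio test called Snx20 alone, where it called 0.243%. The choice of the family fixed these calls of Snx20, and nothing is read from them either. Limma-voom called 0 members and 0% of genes.

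The fold changes of the family centred on 0. Of the 29 tested members, 14 were above 0 and 15 below, where 50.1% of all tested genes were above 0. The members' fold changes had a median of -0.01 on the log2 scale, against 0.00 over all tested genes. They ran from -0.66 to 0.23, and 24 lay within 0.3 of 0. The 95% interval stayed within 1.5-fold either way for 17 members and within 2-fold for 26, Snx20 among the 26. Apart from Snx20, a larger difference was outside the interval for those genes. The interval of Snx20 is a description and sets no bound. On the plot of fold changes, the widest intervals belonged to Snx22, Snx33 and Snx21, the tested members of lowest level. KI and WT were fully apart for Snx20 and Snx27, both lower in KI, among the 28 members that averaged 1 CPM or more. Of all genes at that level, 5.39% were fully apart, 2.77% lower in KI and 2.63% higher. Nothing is read from the 2 members fully apart, since this contrast chose the family.

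**Figure D3:**
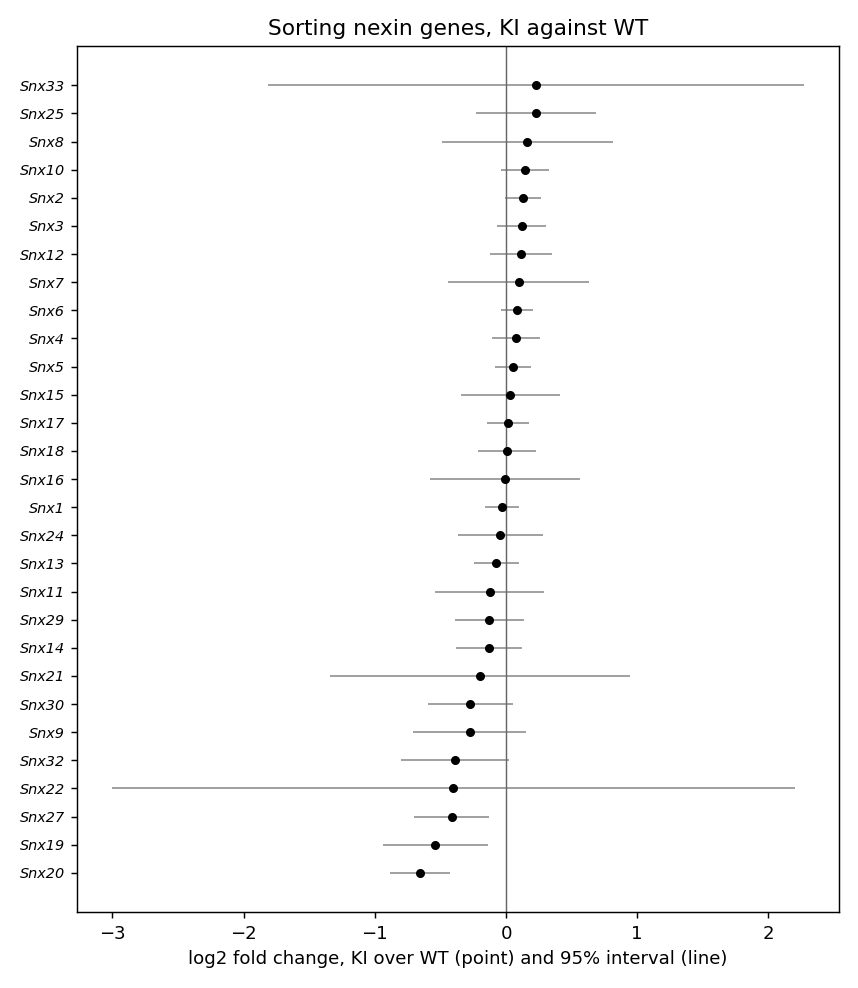
Log2 fold change of KI over WT (points) with its 95% interval (lines) for the 29 tested sorting nexin genes, ordered by fold change. Snx20 is drawn as a description, since its difference chose the family; the intervals of Snx19 and Snx27 lie below 0 and those of the other 26 members include 0.

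Snx27 and Snx17 carry a FERM-like domain that reads sorting motifs in receptor tails. Snx27, whose PDZ domain couples receptors such as the beta2-adrenergic receptor to retromer, had 41.9, 41.9, 36.0 and 37.2 CPM in KI 513, 526, 528 and 549, against 48.9, 58.9, 42.1 and 59.7 CPM in WT 503, 504, 506 and 527. The KI libraries lay below the WT libraries, with KI 513 and WT 506 almost level. The means were 39.3 ± 3.11 CPM in KI and 52.4 ± 8.45 CPM in WT (log2 fold change -0.42, SE 0.13, adjusted p = 0.533). In deposited FPKM, which is scaled to library totals, the groups overlapped, with 6.42 in KI 526 and 6.33 in WT 506. Snx17, which with retriever returns LRP1 and integrins to the surface, had 299, 265, 267 and 298 CPM in KI 513, 526, 528 and 549, against 253, 284, 298 and 281 CPM in WT 503, 504, 506 and 527. The groups overlapped, at a log2 fold change of 0.02 (SE 0.07, adjusted p = 0.981). Snx17 shares 204 exon bases with Eif2b4 and 163 with Zfp513, both on the other strand. Snx31, the remaining FERM member, was at 0.0399 ± 0.0241 FPKM in KI and 0.0575 ± 0.0270 FPKM in WT.

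The class listed here by PXA, RGS and PX domains includes proteins at contacts of the endoplasmic reticulum with endosomes, lysosomes or lipid droplets. Its name does not mean that each member, such as Snx19, carries all of these domains. Snx19, which holds endolysosomes near the endoplasmic reticulum, had 24.0, 40.0, 25.4 and 34.6 CPM in KI 513, 526, 528 and 549, against 41.7, 44.3, 55.0 and 39.4 CPM in WT 503, 504, 506 and 527. KI 526 was above WT 527, and the other KI libraries were below all 4 WT libraries. The means were 31.0 ± 7.61 CPM in KI and 45.1 ± 6.90 CPM in WT (log2 fold change -0.54, SE 0.18, adjusted p = 0.555). Snx13, a tether of the endoplasmic reticulum and lipid droplets, had a log2 fold change of -0.07, and Snx14, which acts in lipid droplet growth, one of -0.13. Snx25, which promotes degradation of TGF-beta receptors, was the member of this class above 0, at 0.23, with 9.04 ± 1.41 CPM in KI and 7.72 ± 1.46 CPM in WT. Of its exon bases, 132 are shared with Cfap97, a gene of 22084 reads on the other strand against 3359 for Snx25. None of these 4 members passed the adjusted test.

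The SNX-BAR members form the tubules through which cargo leaves endosomes, and they held 54.4% of the family's FPKM. Snx2, the highest member by FPKM, had 337, 395, 365 and 375 CPM in KI 513, 526, 528 and 549, against 318, 340, 340 and 348 CPM in WT 503, 504, 506 and 527. Of the KI libraries, 513 lay within the WT range and the others above it (log2 fold change 0.13, SE 0.06, adjusted p = 0.676). Its partner Snx1 varied least of all members, with a coefficient of variation of 3.52% over the 8 libraries, and was at 40.0 ± 1.63 FPKM in KI and 41.1 ± 1.07 FPKM in WT. Both proteins pair with Snx5 or Snx6, and the ratio of Snx2 to Snx1 in FPKM was 5.04 ± 0.419 in KI and 4.50 ± 0.199 in WT, with overlapping ranges. That ratio depends on exon length, and 48.9% of the exon bases of Snx1 lie only in non-coding transcripts. In CPM, which is not divided by length, Snx2 averaged 353 and Snx1 168 over the 8 libraries. A stretch of 242 bases of Snx2 matches a non-coding transcript of Snx30 at 99.6% identity, and one of 543 bases matches the pseudogene Gm12543 at 99.1%. Snx30 shares 240 exon bases with Gm12543 on the same strand, and reads of these genes may be split.

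Snx5 had 679, 613, 632 and 692 CPM in KI 513, 526, 528 and 549, against 671, 590, 627 and 635 CPM in WT 503, 504, 506 and 527 (log2 fold change 0.05, SE 0.06, adjusted p = 0.904). Snx6 had 373, 401, 380 and 381 CPM in KI 513, 526, 528 and 549, against 368, 381, 344 and 358 CPM in WT 503, 504, 506 and 527 (log2 fold change 0.08, SE 0.06, adjusted p = 0.795). Both genes overlapped between the groups. The ratio of Snx5 to Snx6 in FPKM was 1.20 ± 0.0981 in KI and 1.23 ± 0.0928 in WT. Snx32, a relative of Snx6, was much lower, at 4.25 ± 0.126 FPKM in KI and 5.62 ± 0.854 FPKM in WT (log2 fold change -0.39, adjusted p = 0.670). Snx5 shares 206 exon bases with Mgme1 on the other strand.

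The other SNX-BAR members were Snx4, Snx7, Snx8 and Snx30. Snx4 pairs with Snx7 or Snx30 in recycling and autophagy and had 144, 126, 124 and 125 CPM in KI 513, 526, 528 and 549, against 128, 131, 110 and 123 CPM in WT 503, 504, 506 and 527. KI 513 stood above the other KI libraries, and the groups overlapped (log2 fold change 0.08, adjusted p = 0.893). A pseudogene matches 1355 bases of Snx4 at 95.9% identity and held reads equal to 4.76% of those of Snx4. Snx7 was at 3.20 ± 0.170 FPKM in KI and 3.03 ± 1.11 FPKM in WT, and Snx30 at 4.26 ± 0.878 FPKM in KI and 5.18 ± 0.659 FPKM in WT. Snx30 had 14365 reads over the 8 libraries against 140432 for Snx2, so reads split with Snx2 may alter its level. Snx8, another endosomal member, was at 2.22 ± 0.766 FPKM in KI and 2.02 ± 0.529 FPKM in WT. Over the 9 SNX-BAR genes 6 fold changes were above 0 and 3 below, with a median of 0.08 on the log2 scale.

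Some members consist of little more than the PX domain. Snx3, which with retromer carries the Wnt transporter Wntless, had 210, 179, 214 and 226 CPM in KI 513, 526, 528 and 549, against 208, 180, 186 and 190 CPM in WT 503, 504, 506 and 527. The groups overlapped, with KI 526 the lowest of the 8 libraries (log2 fold change 0.12, SE 0.08, adjusted p = 0.800). Its close relative Snx12 stood far below it, the ratio of Snx3 to Snx12 in FPKM being 12.2 ± 1.11 in KI and 12.2 ± 0.622 in WT. Snx10, which is needed for bone resorption by osteoclasts, was at 26.5 ± 3.23 FPKM in KI and 24.2 ± 1.92 FPKM in WT (log2 fold change 0.14, adjusted p = 0.735). Snx11 had a log2 fold change of -0.12 and Snx24 one of -0.04. Snx22 had 0 to 50 reads in KI and 12 to 49 in WT, and 825 of its exon bases are shared with Ppib, a gene of 28205 reads on the other strand, so its level is uncertain. It varied most of all members, with a coefficient of variation of 98.0%.

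Snx9, Snx18 and Snx33 carry an SH3 domain and act with dynamin and actin regulators in endocytosis and membrane remodelling. Snx18 led this class, with 186, 223, 219 and 256 CPM in KI 513, 526, 528 and 549, against 244, 220, 196 and 220 CPM in WT 503, 504, 506 and 527. The KI libraries held both the lowest and the highest of the 8 values, and the log2 fold change was 0.01 (SE 0.10, adjusted p = 0.995), with a sign that turned with library totals as the only scaling (-0.00479). Snx9 was at 6.02 ± 1.64 FPKM in KI and 7.36 ± 0.664 FPKM in WT (log2 fold change -0.28, adjusted p = 0.796). Snx33 had 50 to 135 reads per KI library and 3 to 205 per WT library, so its level spread more within WT than between the groups.

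The members with further domains stayed near 0. Snx15, a membrane traffic protein with a MIT domain, had a log2 fold change of 0.03, Snx16, a coiled-coil protein of EGF receptor traffic, one of -0.01, and Snx29 one of -0.13. Snx29 was the highest of them, at 26.7 ± 2.43 FPKM in KI and 29.3 ± 4.63 FPKM in WT. Snx16 shares 330 exon bases with Chmp4c, and in all 9 members share exon bases with another gene. Members that lie close together differed in level: Snx2 and Snx24 lie 24802 bases apart on chromosome 18 at 193 and 15.1 FPKM, and Snx1 and Snx22 lie 18414 bases apart on chromosome 9 at 40.5 and 0.150 FPKM.

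The complexes that work with sorting nexins were described from a list of 26 genes of retromer, retriever, commander and WASH, of which 24 were tested. Of these, 17 fold changes were above 0, as were 50.1% of all tested genes, and 7 were below, with a median of 0.04. By edgeR's quasi-likelihood test 0 were called, and 2 were at an unadjusted p under 0.05, both higher in KI, where 3.23% of all tested genes were. Vps29, a small subunit of retromer, was at 217 ± 1.75 CPM in KI and 186 ± 12.6 CPM in WT (log2 fold change 0.23, edgeR adjusted p = 0.508). It was higher in KI without overlap, as were 2.63% of all genes averaging 1 CPM or more. DESeq2 called it at an adjusted p of 0.0434, where it called 1.11% of all genes. Commd6, a commander subunit, was at 126 ± 3.08 CPM in KI and 113 ± 3.998 CPM in WT, also higher in KI without overlap (log2 fold change 0.16, edgeR adjusted p = 0.598). Commd3, of the same complex, had a log2 fold change of 0.16 (adjusted p = 0.670). The other retromer subunits were close to 0, Vps35 at 0.03, Vps26a at 0.07 and Vps26b at -0.05 on the log2 scale.

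Of 17 cargo genes of sorting nexins and retromer 16 were tested, with 4 fold changes above 0 and 12 below, a median of -0.13 and 0 called by edgeR's quasi-likelihood test. Over all tested genes 50.1% were above 0. Selplg, the gene of PSGL-1 and so of the known partner of SNX20, was at 4151 ± 324 CPM in KI and 4562 ± 296 CPM in WT (log2 fold change -0.14, SE 0.07, adjusted p = 0.685), and the groups overlapped. Lrp1, a large endocytic receptor carried by SNX17, was at 110 ± 12.6 CPM in KI and 137 ± 13.4 CPM in WT (log2 fold change -0.32, adjusted p = 0.554). Atp7a, a copper transporter, had a log2 fold change of -0.32 (adjusted p = 0.591). Wls, the gene of Wntless, was at 275 ± 6.53 CPM in KI and 249 ± 9.62 CPM in WT (log2 fold change 0.14, adjusted p = 0.598). It was higher in KI without overlap, as were 2.63% of all genes averaging 1 CPM or more. At an unadjusted p under 0.05, 4 cargo genes were lower and 1 higher, where 4.56% of all tested genes were lower and 3.23% higher.

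The other genes with a PX domain, 17 of 19 tested, had 10 fold changes above 0 and 7 below, a median of 0.04 and 0 called by that test, with 1 at an unadjusted p under 0.05, where 7.79% of all tested genes were. Arhgap32, a GTPase activating protein, was at 4.82 ± 1.95 CPM in KI and 2.01 ± 0.778 CPM in WT (log2 fold change 1.26, SE 0.39, adjusted p = 0.533). It was higher in KI without overlap, as were 2.63% of all genes averaging 1 CPM or more. Pld2, a phospholipase D, had a log2 fold change of 0.52 (adjusted p = 0.742) and Sgk3, an endosomal kinase, one of 0.12 (adjusted p = 0.749). The median over all tested genes was 0.00, with 50.1% of them above 0, and nothing particular to any of these lists was tested.

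**Figure D4:**
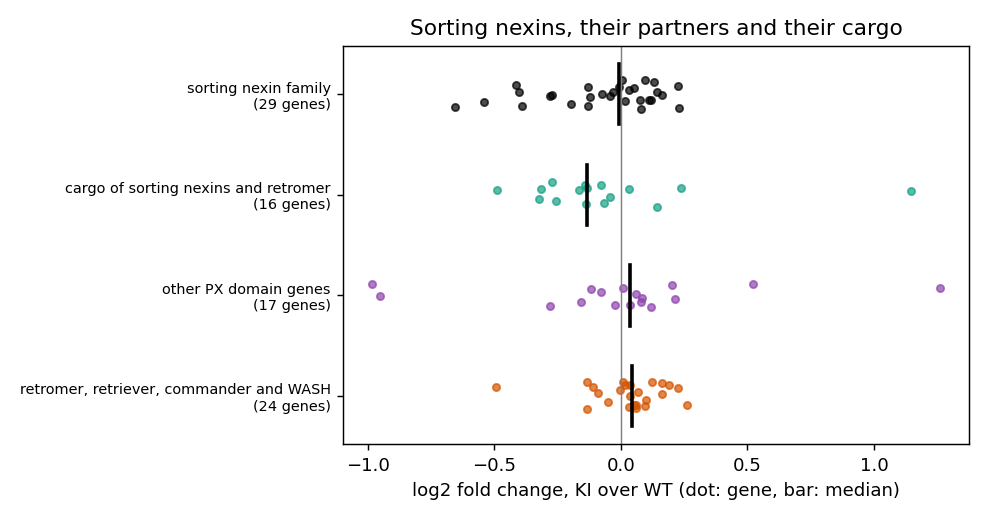
Log2 fold change of KI over WT for the tested genes of the sorting nexin family, of its cargo, of other PX domain genes and of retromer and its partner complexes, with 1 dot per gene and a bar at the median. The medians are -0.01, -0.13, 0.04 and 0.04, and Arhgap32 lies farthest to the right.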

How the data were processed

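RNA was sequenced from sorted spinal cord microglia of 4 KI and 4 WT female mice, with groups taken from the labels. The submitters' processing notes name build mm10 and the tools featureCounts 2.0.3, STAR 2.7.5c, limma, edgeR, R 3.6.0 and SAMtools 1.9. The deposited counts were made with featureCounts over exons of each gene, with paired input, primary alignments and no strand option, per the file headers. Both reads of a pair can count, and 68.9% to 70.8% of counts from 1 to 9 were even in each library. The exon length in bases, the other value used from that table, was deposited by the authors per the file headers. The deposited FPKM values are, from the numbers, counts scaled to the library total and to the exon length less a constant. The tables hold 8 columns of other libraries, not used here.

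Counts were fitted in R 4.3.3 with edgeR 4.0.16 (TMM, filterByExpr with minimum count 10 and total 15, robust quasi-likelihood, group as the only term) on 17291 genes, with Benjamini-Hochberg adjustment over all of them. DESeq2 1.42.0, edgeR's likelihood ratio test, limma 3.58.1 (voom, and trend on log2 of the deposited FPKM plus 1 or 0.1), other scalings, no filter and leaving out each library were alternatives. The fits were tested on simulated counts whose changes were all larger than that of Snx20. That test does not bear on smaller differences or on why the fits differed in their calls. The limit that a count of 0 allows, 3 reads if these count singly and more if they come in pairs, corresponds to at least 0.0555 to 0.0664 CPM, and covers counting error only, since molecules carried no identifiers. Near copies were sought with blastn 2.17.0 (at least 200 bases at 95% identity). Genes were named by GENCODE M21, in which 27 of 30 members have the same ends.

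Values of every library are given for Snx20, for members with an unadjusted p under 0.05 or no overlap of the groups, for the 6 highest by FPKM and for the closest relative of Snx20, which was taken from the class list because proteins were not used here. Snx4 was added after its values were seen. From other lists, the retromer core, Selplg and up to 3 genes of smallest p are named. Some items are not reported here. The members and lists were chosen with earlier results of these data known.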

Additional observations from a re-analysis of the deposited data

Results flagged for a closer look

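Snx4 in the KI group had 1 library apart from the others: mouse 513 was at 144 CPM, while the other 3 KI libraries were at 124 to 126 CPM. By Dixon's test for an outlying value, the gap to the nearest library divided by the group's range was 0.902. The test was made for 58 groups of 4 libraries, and chance flags about 1 in 20 groups. No explanation was tested.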

How the results depend on the processing

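The number of genes called, 0 by edgeR's quasi-likelihood test, was 233 with DESeq2, 42 with edgeR's likelihood ratio test and 1 with limma-trend on log2(FPKM + 1). The number of members called, 0 in that test, was 1 with DESeq2 and 1 with the likelihood ratio test, Snx20 each time, a call that the choice of the family fixed. The cause of these differences was not tested. At an unadjusted p under 0.05, DESeq2 and both limma-trend fits gave 4 members, with Snx32 added to Snx19, Snx20 and Snx27. The fit without WT 504 added Snx32 as well. The share of all genes at that limit is not given for those fits, and nothing is read from these counts. Snx20 ranked 16 of 30 in FPKM and 13 in TMM-scaled CPM, which is not divided by length. The top of the order changed as well: in mean CPM, Snx5 at 643 and Snx6 at 373 were above Snx2 at 353. Leaving out 1 library at a time, genes and members called stayed at 0, and members at an unadjusted p under 0.05 numbered 3 to 6, with 5 without KI 526 (Snx3 and Snx30 added) and 6 without WT 503 (Snx10, Snx14 and Snx29 added). The share of all tested genes at that limit, 7.79% in the fit on all 8 libraries, is not given for these fits. Nothing is read from these counts, since this contrast chose the family. The members' median log2 fold change was -0.0498 (without WT 506) to -0.00287 (without KI 526), and -0.0487 without WT 504. That of Snx20 was -0.71 to -0.60, of Snx27 -0.51 to -0.35 and of Snx19 -0.69 to -0.43. Signs turned for 3 members: Snx17 ran from -0.0291 to 0.0489, Snx18 from -0.0716 to 0.0769 and Snx21 from -0.98 (without KI 549) to 0.10 (without KI 528). Snx18 was also at -0.00479 with library totals only, -0.00937 with log2(FPKM + 1) and -0.00967 with log2(FPKM + 0.1). Of the other values of single members, 134 kept their sign and their side of the threshold, and 72 of the summary values did not move. No paired analysis was possible because the groups share no replicate numbers. Depth limits Snx22, Snx31 and Snx33, which had libraries with 3 reads or fewer. With 4 mice a group, members whose interval includes 0 may still differ by as much as the interval allows.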
